A study of Mus musculus with 34 samples.

Results

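Plaque-induced microglial genes are genes that microglia switch on around amyloid plaques. The 10 described here are Cst7, Clec7a, Itgax, Ccl3, Ccl6, Lpl, Spp1, Axl, Cd52 and Lyz2. They were taken by gene name from the 55385 genes listed in the deposited counts, each name matched 1 row, and all 10 were among the 17632 genes with enough counts to be tested. No measured value of a library entered the choice of names, but the set was put together with earlier results of these data known.

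Microglia are the resident macrophages of the brain. When they meet amyloid plaques, sensing through the receptor TREM2 and its adaptor moves them into a state in which genes of phagocytosis, lysosomes and lipid handling are raised and homeostatic genes are lowered. Cst7, Clec7a, Itgax, Lpl, Spp1 and Axl are standard markers of that state, the chemokine genes Ccl3 and Ccl6 are induced with it, and Cd52 and Lyz2 are myeloid genes that rise in it but are also carried by other myeloid cells.

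Poly-A RNA was sequenced from the brain cortex of 34 mice aged 6 months, 16 of them with the 5xFAD transgenes and 18 without. 5xFAD mice express human amyloid precursor protein and presenilin transgenes with familial Alzheimer's disease mutations under Thy1 sequences, which drive them in neurons, and Dp16 mice carry an extra copy of a segment of mouse chromosome 16 with many orthologues of human chromosome 21 genes. Each genotype received tofacitinib, a Janus kinase inhibitor, at 15 mg/kg by oral gavage every day for 1 month, or sham gavage of 0.5% methylcellulose for as long. The groups were 5xFAD-Dp16 with tofacitinib (4 mice, 2 of them female) and sham (3, 2 female), 5xFAD with tofacitinib (5, 2 female) and sham (4, 1 female), Dp16 with tofacitinib (5, 3 female) and sham (3, 2 female), and wild-type C57BL/6J (WT) with tofacitinib (5, 2 female) and sham (5, 2 female). The mice of the 4 5xFAD groups are called carriers here and the others non-carriers. The background strain is labelled for the WT mice only.

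Libraries held 16029841 to 21388650 counted reads, and no 2 libraries had identical counts. Thy1, whose sequences are part of the transgenes, read 1427 to 2572 CPM (counts scaled to library size) in carriers and 824 to 952 CPM in non-carriers, so every carrier lay above every non-carrier. Earlier results of these data set 2 libraries apart, 5xFAD tofacitinib 2 and WT sham 2. In WT sham 2 the summed level of 5 astrocyte genes was 1263 CPM, at the low end of the non-carriers. WT tofacitinib 1, which was not set apart, also had 1263 CPM. In 5xFAD tofacitinib 2 the summed level of 5 oligodendrocyte genes was 13341 CPM, against at most 9317 CPM in any non-carrier, and that of 6 cortical excitatory neuron genes was 648 CPM, the lowest of the 34 libraries. Both libraries were kept, and results are also given without them where they matter. In RNA from whole cortex, a change in the number of cells that hold a transcript and a change in the amount per cell cannot be told apart.

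Levels of the members relative to each other can be read from RPKM, which is scaled by gene length. Lyz2, the lysozyme of macrophages, and Axl, a receptor tyrosine kinase that recognises dying cells, had the highest mean RPKM in carriers, 16.3 ± 7.46 and 16.1 ± 1.37 (SD, n = 16). In non-carriers, Lyz2 averaged 12.8 ± 4.41 RPKM and Axl 14.9 ± 2.38 RPKM (SD, n = 18). Cst7 averaged 6.25 ± 4.57 RPKM in carriers and 0.188 ± 0.277 RPKM in non-carriers, so that 3 members had a higher mean RPKM than Cst7 in carriers, and 8 did in non-carriers. Itgax was the lowest member in both, at 0.326 ± 0.234 RPKM in carriers and 0.0668 ± 0.0569 RPKM in non-carriers. In carriers, Cd52 (8.47 ± 4.17 RPKM), Lpl (5.30 ± 0.677 RPKM), Spp1 (4.74 ± 2.88 RPKM), Ccl6 (4.46 ± 2.17 RPKM) and Clec7a (2.1 ± 1.75 RPKM) had means within the SD of Cst7. Ccl3 was below that range at 1.42 ± 0.885 RPKM. The SD is the spread among mice, and the order of the genes within each mouse was not tested.

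**Figure D1:**
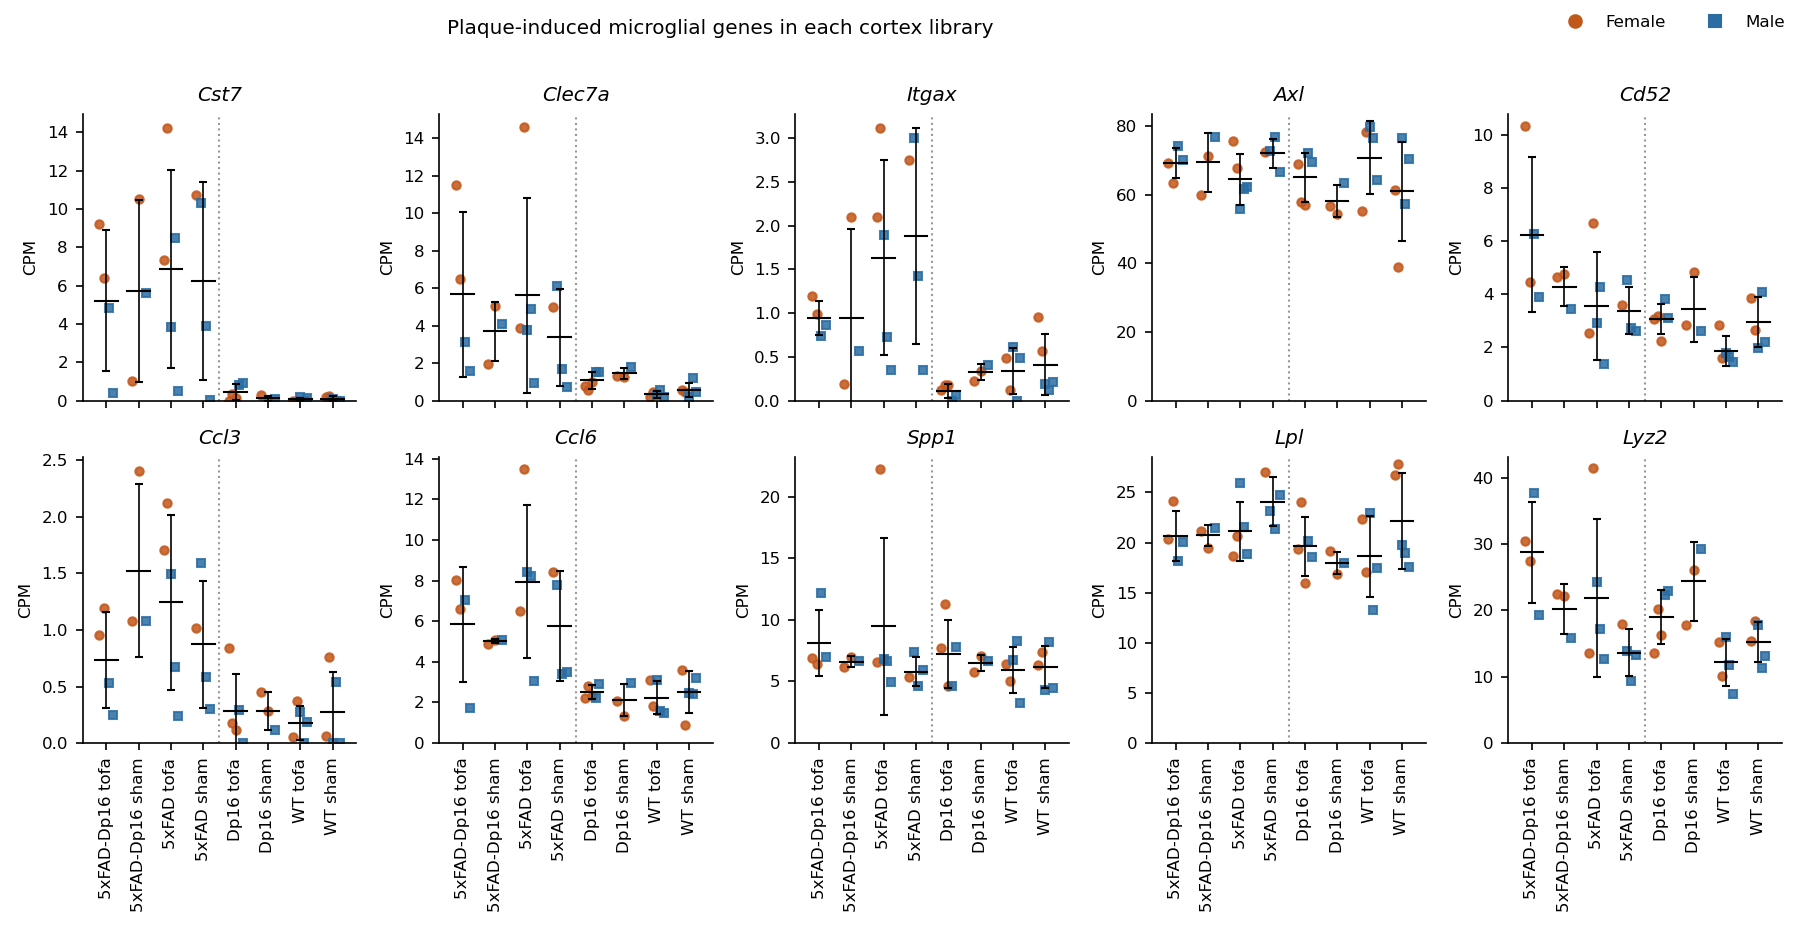
Level of each member in CPM on the vertical axis for the 34 libraries, by group on the horizontal axis, with carriers of 5xFAD left of the dotted line and non-carriers right of it. Points are mice (circles female, squares male), horizontal bars are group means and whiskers are the SD, cut off at 0; Cst7 reached 14.2 CPM in carriers and at most 0.935 CPM in non-carriers, while the ranges of Axl and Lpl overlapped on both sides.

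Carriers were compared with non-carriers over both treatments and both Dp16 states, to ask which of the 10 genes differed with the transgenes. The genes Cst7, Clec7a, Itgax, Ccl3 and Ccl6 rose in carriers, and Cd52, Lpl, Lyz2, Axl and Spp1 did not pass the test. Thus 5 of the 10 members were called, all higher, at an adjusted p under 0.05 in edgeR's quasi-likelihood test with Benjamini-Hochberg adjustment over all genes. Of the 17632 genes tested 76 were called, a background of 0.431%, and 36 of these were higher (0.204%). The fitted log2 difference was above 0 in all 10 members, with a median of 0.99, against 0.0033 over all genes tested. Cst7, Itgax and Ccl3 entered the test only because of their level in carriers, since among non-carriers alone they would not have had enough counts. These 3 had to differ to be tested at all, so their calls, and any count or median that includes them, lend nothing to the set. The other 7 members would have passed the count filter among non-carriers as well, and 2 of these 7 were called, Clec7a and Ccl6.

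Cst7 encodes cystatin F, an inhibitor of lysosomal cysteine proteases (ENSMUSG00000068129.5, GRCm38 chromosome 2, 150570415 to 150578944, plus strand). Its level was 9.20, 6.38, 4.83 and 0.404 CPM in the 5xFAD-Dp16 tofacitinib mice, 1.04, 10.5 and 5.59 CPM in 5xFAD-Dp16 sham, 7.32, 14.2, 3.83, 8.51 and 0.473 CPM in 5xFAD tofacitinib, and 10.7, 10.3, 3.92 and 0.0497 CPM in 5xFAD sham. In the 18 non-carriers it lay between 0 and 0.935 CPM with a median of 0.0896 CPM. There were thus 13 of 16 carriers above the highest non-carrier, and 3 carriers, 1 in each of 3 groups, that lay among the non-carriers. The means were 6.09 ± 4.32 CPM in carriers and 0.186 ± 0.274 CPM in non-carriers, a 32.8-fold ratio of means, and the fitted log2 difference was 5.42 (SE 0.62, edgeR adjusted p = 1.79e-05). By group, the mean was 5.21 ± 3.68 CPM in 5xFAD-Dp16 tofacitinib, 5.72 ± 4.75 CPM in 5xFAD-Dp16 sham, 6.87 ± 5.18 CPM in 5xFAD tofacitinib and 6.25 ± 5.18 CPM in 5xFAD sham (SD), so the carrier groups differed by less than their own spread. The non-carrier groups averaged 0.444 ± 0.414 CPM in Dp16 tofacitinib, 0.113 ± 0.148 CPM in Dp16 sham, 0.0578 ± 0.0807 CPM in WT tofacitinib and 0.0989 ± 0.113 CPM in WT sham. Of the non-carriers, 7 had no read of Cst7, where 3 reads, the limit that a count of 0 allows for counting error, correspond to 0.160 to 0.185 CPM.

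Clec7a encodes dectin-1, a C-type lectin receptor for fungal glucans that marks microglia at plaques (ENSMUSG00000079293.11, chromosome 6, 129461591 to 129472779, minus strand). It read 11.5, 6.49, 3.13 and 1.57 CPM in 5xFAD-Dp16 tofacitinib, 1.93, 5.03 and 4.09 CPM in 5xFAD-Dp16 sham, 3.85, 14.6, 3.78, 4.90 and 0.945 CPM in 5xFAD tofacitinib, and 4.97, 6.13, 1.66 and 0.746 CPM in 5xFAD sham. Non-carriers covered 0.160 to 1.80 CPM with a median of 0.555 CPM. The ranges overlapped, with 12 of 16 carriers above the highest non-carrier. The fitted log2 difference was 2.56 (SE 0.34, edgeR adjusted p = 9.67e-05).

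Itgax encodes CD11c, an integrin alpha chain used by dendritic cells and by activated microglia (ENSMUSG00000030789.9, chromosome 7, 128129547 to 128150657, plus strand). It was at 1.2, 0.986, 0.744 and 0.859 CPM in 5xFAD-Dp16 tofacitinib, 0.188, 2.1 and 0.564 CPM in 5xFAD-Dp16 sham, 2.1, 3.12, 1.89, 0.722 and 0.355 CPM in 5xFAD tofacitinib, and 2.76, 3.01, 1.42 and 0.348 CPM in 5xFAD sham. In non-carriers it lay between 0 and 0.950 CPM with a median of 0.201 CPM. Only 9 of 16 carriers exceeded the highest non-carrier, and the gene was thin in reads, with 4 to 69 counts in carriers and 0 to 16 counts in non-carriers. Its log2 difference was 2.29 (SE 0.37, edgeR adjusted p = 0.0015).

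The chemokine genes Ccl6 and Ccl3 lie 54756 bases apart on the minus strand of chromosome 11. Ccl6 (ENSMUSG00000018927.3, 83587882 to 83593087), a rodent myeloid chemokine, had 8.05, 6.59, 7.07 and 1.72 CPM in 5xFAD-Dp16 tofacitinib, 4.89, 5.08 and 5.08 CPM in 5xFAD-Dp16 sham, 6.49, 13.5, 8.40, 8.25 and 3.07 CPM in 5xFAD tofacitinib, and 8.44, 7.77, 3.43 and 3.48 CPM in 5xFAD sham. Non-carriers lay between 0.890 and 3.62 CPM with a median of 2.37 CPM, so that 12 of 16 carriers were above all of them. The log2 difference of Ccl6 was 1.36 (SE 0.20, edgeR adjusted p = 0.000482). Unlike Cst7, Ccl6 was present in every non-carrier, with 14 to 61 counts. It overlaps E230016K23Rik on the plus strand, and whether the counting used strand is not given in the sources used here.

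Ccl3 (ENSMUSG00000000982.5, 83647844 to 83649355) encodes MIP-1 alpha, an inflammatory chemokine that attracts myeloid cells and lymphocytes. It had 0.958, 1.19, 0.531 and 0.253 CPM in 5xFAD-Dp16 tofacitinib, 1.08, 2.41 and 1.08 CPM in 5xFAD-Dp16 sham, 1.71, 2.13, 1.49, 0.670 and 0.236 CPM in 5xFAD tofacitinib, and 1.02, 1.59, 0.587 and 0.298 CPM in 5xFAD sham. Non-carriers covered 0 to 0.840 CPM with a median of 0.182 CPM, and 10 of 16 carriers lay above them. Its log2 difference was 2.13 (SE 0.42, edgeR adjusted p = 0.0141), the smallest margin of the 5, and without Dp16 sham 2 it had an adjusted p of 0.0531. The neighbouring chemokine genes can share reads with them: Ccl4 averaged 0.168 ± 0.209 CPM in carriers and 0.145 ± 0.166 CPM in non-carriers, and Ccl9 averaged 3.95 ± 1.63 CPM in carriers and 3.75 ± 1.35 CPM in non-carriers (SD, n = 16 and 18).

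The sequences just upstream of these 5 genes are shown because all 5 rose in carriers. They are the 250 bases before the annotated start of each gene in RefSeq on GRCm38.p6, at chr2:150570165-150570414 (plus strand) for Cst7, chr6:129472780-129473029 (minus) for Clec7a, chr7:128129300-128129549 (plus) for Itgax, chr11:83593088-83593337 (minus) for Ccl6 and chr11:83649379-83649628 (minus) for Ccl3. Capitals mark GAGGAA, the core bound by PU.1, the master regulator of microglia and macrophages, and TGANTCA, the site of AP-1 factors, on either strand.
Cst7: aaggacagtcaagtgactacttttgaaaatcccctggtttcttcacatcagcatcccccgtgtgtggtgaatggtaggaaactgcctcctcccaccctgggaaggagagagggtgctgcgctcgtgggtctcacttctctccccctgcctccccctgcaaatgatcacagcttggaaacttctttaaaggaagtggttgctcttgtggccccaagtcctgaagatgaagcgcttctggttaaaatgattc
Clec7a: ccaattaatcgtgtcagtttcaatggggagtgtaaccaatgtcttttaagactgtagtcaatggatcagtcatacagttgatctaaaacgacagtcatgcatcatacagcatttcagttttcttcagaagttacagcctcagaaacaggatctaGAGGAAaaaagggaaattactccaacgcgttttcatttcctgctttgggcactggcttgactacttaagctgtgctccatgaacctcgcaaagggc
Itgax: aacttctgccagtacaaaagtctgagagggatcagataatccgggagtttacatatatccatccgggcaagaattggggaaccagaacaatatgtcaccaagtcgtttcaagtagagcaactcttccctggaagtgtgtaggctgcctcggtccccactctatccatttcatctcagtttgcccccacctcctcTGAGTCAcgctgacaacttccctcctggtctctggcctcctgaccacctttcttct
Ccl6: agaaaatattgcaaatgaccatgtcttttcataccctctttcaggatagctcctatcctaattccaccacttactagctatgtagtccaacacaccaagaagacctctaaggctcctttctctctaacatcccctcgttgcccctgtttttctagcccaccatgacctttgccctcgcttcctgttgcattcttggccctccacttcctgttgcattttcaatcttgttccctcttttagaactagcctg
Ccl3: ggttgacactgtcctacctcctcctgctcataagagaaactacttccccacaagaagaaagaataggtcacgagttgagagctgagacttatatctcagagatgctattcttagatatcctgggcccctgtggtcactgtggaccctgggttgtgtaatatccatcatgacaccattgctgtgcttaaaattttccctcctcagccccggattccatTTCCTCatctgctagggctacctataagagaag

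Promoters were found for 8 of the 10 members. Among these, GAGGAA occurred in the window of Clec7a, Ccl3, Axl and Spp1, and of all 32851 promoter windows of the same length 23.3% held it. The longer form GAGGAAGT, which contains GAGGAA, occurred in Spp1 and in 2.44% of all windows. TGANTCA occurred in Itgax, starting 56 bases before the start of the gene, and in 6.75% of all windows, and the E-box CACGTG (6.02% of all windows) occurred in none of the members. Genes that rose and genes that were not called both held matches, and a match to these letters is a description of the sequence only.

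The members that were not called overlapped widely between carriers and non-carriers. Cd52 (ENSMUSG00000000682.7, chromosome 4, 134082448 to 134095082), a short glycosylated surface peptide of lymphocytes and myeloid cells, lay at 1.36 to 10.4 CPM with a median of 4.08 CPM in carriers and at 1.47 to 4.84 CPM with a median of 2.75 CPM in non-carriers. Its log2 difference of 0.62 (SE 0.16) had an edgeR adjusted p of 0.0669, and 3 of 16 carriers were above the highest non-carrier. Without 5xFAD tofacitinib 6 it was called, with a log2 difference of 0.67 and an adjusted p of 0.0417. It overlaps Crybg2 on the opposite strand.

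Lyz2 (ENSMUSG00000069516.8, chromosome 10, 117277331 to 117282321) lay at 9.30 to 41.5 CPM with a median of 18.6 CPM in carriers and at 7.46 to 29.2 CPM with a median of 16.1 CPM in non-carriers (log2 difference 0.25, SE 0.14, edgeR adjusted p = 0.334; 0.16 without 5xFAD tofacitinib 2). The near-identical Lyz1 had at most 0.361 CPM in any library. Spp1, which encodes osteopontin, a secreted phosphoprotein (ENSMUSG00000029304.14, chromosome 5, 104435118 to 104441050), lay at 4.60 to 22.3 CPM with a median of 6.66 CPM in carriers and at 3.24 to 11.3 CPM with a median of 6.54 CPM in non-carriers. Its log2 difference was 0.21 (SE 0.17, edgeR adjusted p = 0.521), and 0.06 without 5xFAD tofacitinib 2 and WT sham 2, 0.05 without 5xFAD tofacitinib 2 alone and 0.13 without 5xFAD-Dp16 tofacitinib 3. Spp1 overlaps the predicted gene Gm42793 on the same strand.

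Axl (ENSMUSG00000002602.16, chromosome 7, 25757273 to 25788705) and Lpl, which encodes lipoprotein lipase (ENSMUSG00000015568.16, chromosome 8, 68880491 to 68907448), were the steadiest members. Axl lay at 55.8 to 76.8 CPM in carriers and 39.0 to 79.7 CPM in non-carriers, and Lpl at 18.2 to 27.1 CPM in carriers and 13.3 to 27.9 CPM in non-carriers, with no carrier above the highest non-carrier for either gene. The log2 differences were 0.11 for Axl (SE 0.07, edgeR adjusted p = 0.343) and 0.16 for Lpl (SE 0.07, adjusted p = 0.229). Both genes are also transcribed in brain cells other than microglia, Axl in astrocytes and vessels and Lpl in neurons and oligodendrocyte precursors.

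Among 40 other genes of plaque and disease-associated microglia, 38 were tested and 6 rose in carriers, against the background of 0.204% higher over all genes. In these 38 genes the median log2 difference was 0.18, and 30 were above 0. Of these, Grn, the precursor of lysosomal granulins, averaged 52.9 ± 6.43 CPM in carriers and 40.4 ± 5.07 CPM in non-carriers (log2 difference 0.40, edgeR adjusted p = 0.0015). The others with the smallest p were Lgals3bp, a secreted galectin ligand (0.66, adjusted p = 0.00497), Cd68, a lysosomal membrane protein of phagocytes (0.56, adjusted p = 0.00528), the protease gene Ctsd (0.31, adjusted p = 0.0103) and the protease gene Ctsz (0.28, adjusted p = 0.0305). The fitted log2 differences of these 5 genes lay between 0.28 and 0.66. Of the called members, Clec7a (2.56) and Ccl6 (1.36) would have passed the count filter among non-carriers as well. Genes on both sides were picked because they were called, so their sizes side by side are a description only. Trem2, named after its value was seen because it gates the plaque state, averaged 22.8 ± 5.20 CPM in carriers and 16.7 ± 3.71 CPM in non-carriers and was not called (0.43, edgeR adjusted p = 0.0662).

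Markers of the cell types that could carry the members were read beside them. Of 14 homeostatic microglia genes 1 rose, the growth factor receptor gene Csf1r (log2 difference 0.31, edgeR adjusted p = 0.0379), and 10 were above 0, with a median of 0.15. Their summed level was 397 to 556 CPM in carriers and 348 to 492 CPM in non-carriers. Of 14 markers of border macrophages and blood myeloid cells, which also use Lyz2, Cd52 and Itgax, 10 were tested and none was called; 5 of the 14 stayed under 1 CPM in every carrier and in every non-carrier. Their sum was 5.92 to 24 CPM in carriers and 6.72 to 13.4 CPM in non-carriers, with the 24 CPM in 5xFAD-Dp16 sham 1, a mouse with 1.04 CPM of Cst7. Of 6 dendritic cell and 9 lymphocyte markers, 3 each were tested and none was called. Dendritic markers summed to 10.8 to 16.8 CPM in carriers and 10.3 to 15.6 CPM in non-carriers, with Xcr1 at 0 in every non-carrier, and lymphocyte markers to 14.5 to 41.0 CPM in carriers and 13.6 to 45.4 CPM in non-carriers. Of the 9 lymphocyte markers 7 stayed under 1 CPM in every carrier and in every non-carrier. Their sum came mostly from Cd4 (mean 14.1 CPM in carriers, 14.7 CPM in non-carriers) and Trbc2 (11.2 and 13.3 CPM). Whether it reflects lymphocytes was not tested. None of the 5 blood, 5 astrocyte, 5 oligodendrocyte, 6 cortical excitatory neuron, 7 striatum and 4 endothelium markers was called, with 1 endothelium marker not tested. Blood markers were above 0 in 0 of 5 (median -0.24), striatum markers in 1 of 7 (-0.12) and oligodendrocyte markers in 1 of 5 (-0.10). Cortical excitatory neuron markers were above 0 in 5 of 6 (0.13), astrocyte markers in 3 of 5 (0.04) and endothelium markers in 1 of 3 (-0.02). The share of these cells in the members' levels was not tested.

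**Figure D2:**
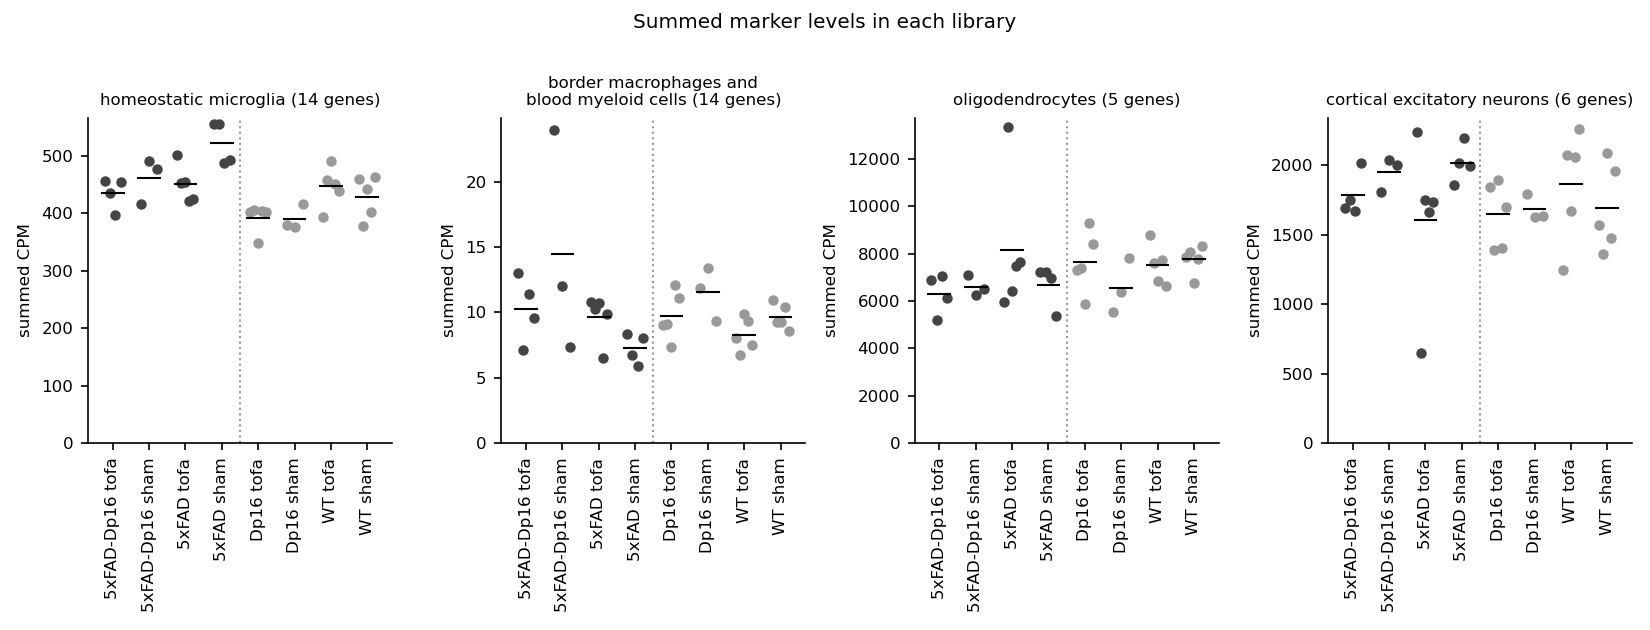
Summed CPM of 4 marker lists on the vertical axes, for each library by group, with carriers left of the dotted line and non-carriers right of it; points are mice (dark for carriers, grey for non-carriers) and bars are group means. The single library at 13341 CPM of oligodendrocyte markers and 648 CPM of excitatory neuron markers is 5xFAD tofacitinib 2, and border macrophage and blood myeloid sums overlapped between both sides.

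The transgene comparison was then made within each treatment and Dp16 state, where each side holds 3 to 5 mice. Among sham mice, 5xFAD against WT called 1 gene of 17632 (0.00567%) and no member in edgeR, while 4357 genes and 5 of the members had an unadjusted p under 0.05. Cst7 (log2 difference 6.01, SE 1.19), Clec7a (2.59, SE 0.65) and Itgax (2.44, SE 0.67) shared an edgeR adjusted p of 0.0633. Ccl3 had 1.93 and Ccl6 1.19. This count depended on single libraries: without WT tofacitinib 1, 4 members and 1625 genes were called, and 3 members were called without WT sham 3 (2008 genes), 5xFAD tofacitinib 1 (873 genes) or 5xFAD tofacitinib 2 (507 genes). Without 5xFAD sham 4, 1 member and 2 genes were called. DESeq2 without independent filtering called 4 members and 1293 genes.

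In 5xFAD-Dp16 against Dp16 among sham mice, edgeR called 1 gene (0.00567%) and no member, with 1084 genes and 3 of the members at an unadjusted p under 0.05. DESeq2 without independent filtering called no member here either. The log2 differences were 5.65 (SE 1.46) for Cst7, 1.35 (SE 0.72) for Clec7a, 1.42 (SE 0.84) for Itgax, 2.48 (SE 0.95) for Ccl3 and 1.22 (SE 0.48) for Ccl6. Without 5xFAD-Dp16 sham 2, Itgax had 0.44.

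Under tofacitinib, 5xFAD against WT called 2 genes (0.0113%), of which 1 was a member. Clec7a averaged 5.61 ± 5.22 CPM in 5xFAD tofacitinib mice and 0.324 ± 0.173 CPM in WT tofacitinib mice (SD, n = 5 each), a log2 difference of 4.00 (SE 0.67, edgeR adjusted p = 0.0133). The 5xFAD value rests in part on mouse 2 with 14.6 CPM: without it the difference was 3.39 and the adjusted p 0.0784, and without any one of WT tofacitinib 1, 2, 3 and 5 the adjusted p lay between 0.0839 and 0.107. Cst7 had a log2 difference of 6.65 (SE 1.24, adjusted p = 0.0665) and Ccl6 1.82 (SE 0.37, adjusted p = 0.102). Striatum markers were above 0 in this comparison in 7 of 7 (median 0.35) and oligodendrocyte markers in 5 of 5 (median 0.18). Cortical excitatory neuron markers were above 0 in 0 of 6 (median -0.22) and endothelium markers in 0 of 3 (median -0.21). None of these was called, and their part was not tested. In 5xFAD-Dp16 against Dp16 under tofacitinib, edgeR called 1 gene (0.00567%) and no member, with 796 genes and 6 of the members at an unadjusted p under 0.05. DESeq2 without independent filtering called none of the members. The log2 differences there were 3.37 (SE 0.96) for Cst7, 2.29 (SE 0.60) for Clec7a, 3.25 (SE 0.78) for Itgax, 1.41 (SE 0.78) for Ccl3 and 1.22 (SE 0.38) for Ccl6. Without Dp16 tofacitinib 1, Ccl3 had 2.15.

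**Figure D3:**
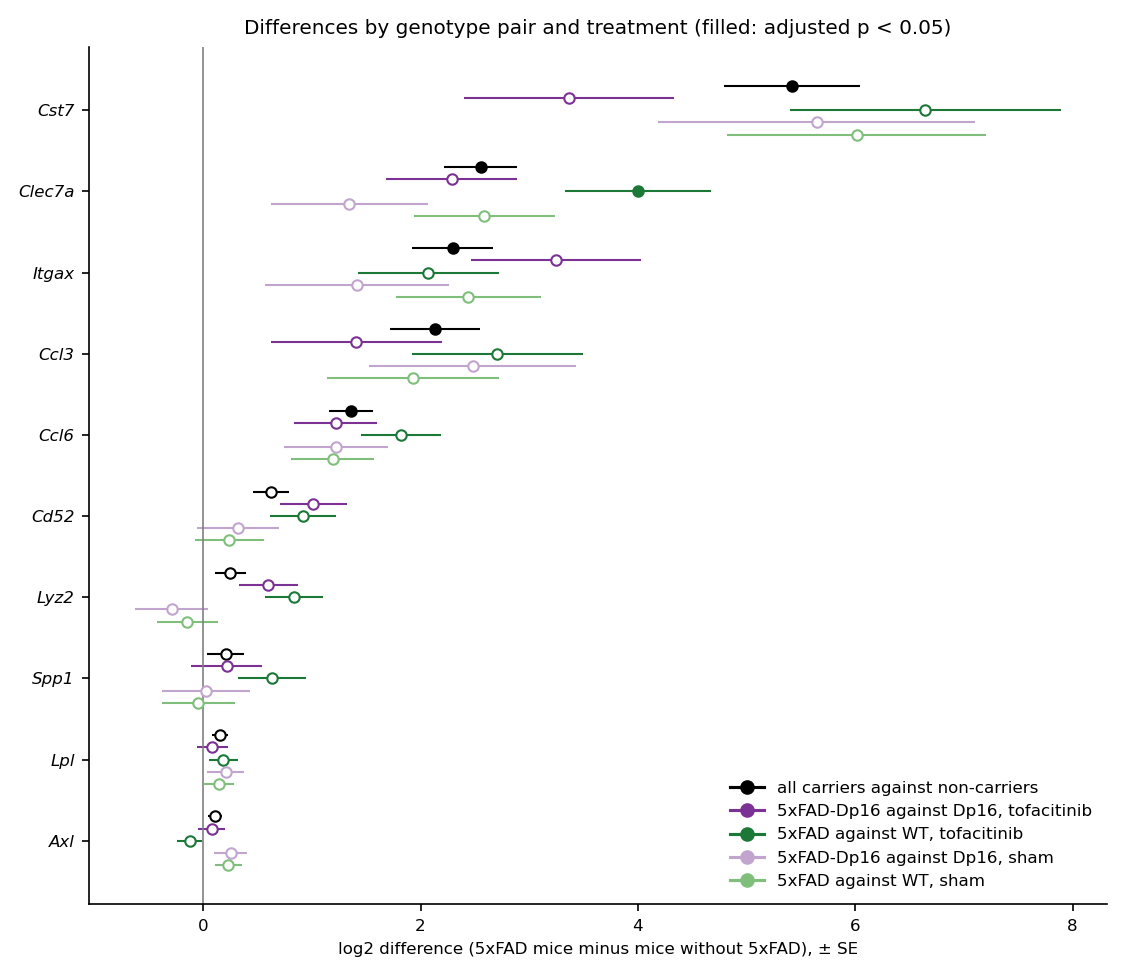
Log2 difference of each member, 5xFAD mice minus mice without 5xFAD, on the horizontal axis with its SE, for all carriers (black) and for the 4 pairs of groups (colours), members down the page in the order of the black points. Filled points had an edgeR adjusted p under 0.05; Cst7 lies furthest right, between 3.37 and 6.65, and Axl and Lpl lie within 0.26 of 0.

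Dp16 was asked about in 3 ways. Within carriers, 5xFAD-Dp16 against 5xFAD over both treatments called 95 genes (0.539%), 73 of them higher (0.414%), and none of the 10 members, which lie on chromosomes other than 16. Unadjusted, 1477 genes and 3 of the members had a p under 0.05, and DESeq2 without independent filtering called no member. Itgax averaged 0.948 ± 0.599 CPM in 5xFAD-Dp16 (SD, n = 7) and 1.75 ± 1.10 CPM in 5xFAD (SD, n = 9), a log2 difference of -1.07 (SE 0.48, edgeR adjusted p = 0.535). Lyz2 averaged 25.1 ± 7.41 CPM in 5xFAD-Dp16 and 18.2 ± 9.71 CPM in 5xFAD (log2 difference 0.45, SE 0.21, edgeR adjusted p = 0.559). Cd52 averaged 5.40 ± 2.35 CPM in 5xFAD-Dp16 and 3.48 ± 1.54 CPM in 5xFAD (log2 difference 0.48, SE 0.23, edgeR adjusted p = 0.592). Border macrophage and blood myeloid markers were above 0 in 9 of the 10 tested in this comparison, with a median of 0.38 and none called, against a median of 0.0074 over all genes. Their sum was 7.11 to 24 CPM in 5xFAD-Dp16 and 5.92 to 10.8 CPM in 5xFAD. The striatum markers were above 0 in 0 of 7, with a median of -0.93 and none called, and summed to 245 to 1230 CPM in 5xFAD-Dp16 and 415 to 1385 CPM in 5xFAD. The part of these cells in the members' values was not tested.

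Without the transgenes, Dp16 against WT over both treatments, a comparison added after these values were seen, called 133 genes (0.754%), 97 of them higher (0.55%), and no member, with 1914 genes and 2 of the members at an unadjusted p under 0.05. DESeq2 without independent filtering called no member. Clec7a was at 0.541 to 1.80 CPM in the 8 Dp16 mice and at 0.160 to 1.2 CPM in the 10 WT mice, and averaged 1.21 ± 0.416 CPM in Dp16 and 0.442 ± 0.305 CPM in WT. Its log2 difference was 1.46 (SE 0.51, edgeR adjusted p = 0.237). Lyz2 was at 13.5 to 29.2 CPM in Dp16 and 7.46 to 18.4 CPM in WT, with a log2 difference of 0.64 (SE 0.20, edgeR adjusted p = 0.156). Itgax, with few counts in non-carriers, averaged 0.188 ± 0.135 CPM in Dp16 and 0.375 ± 0.294 CPM in WT. Its log2 difference was -1.14 (SE 0.58, edgeR adjusted p = 0.477), close to the -1.07 between 5xFAD-Dp16 and 5xFAD carriers. Border macrophage and blood myeloid markers were above 0 here in 7 of 10 (median 0.22) and striatum markers in 0 of 7 (median -0.29), with none called. Other lists held calls. Of 38 other plaque genes 2 were called higher (23 above 0, median 0.05). Of 14 homeostatic microglia markers 1 was called lower (4 above 0, median -0.18), and of 3 lymphocyte markers tested 1 was called higher. The part of these cells in the members' values was not tested. Without 5xFAD tofacitinib 2 and WT sham 2, Lyz2 was called in this comparison (log2 difference 0.70, edgeR adjusted p = 0.0414), as it was without 5xFAD tofacitinib 2 alone (0.66, adjusted p = 0.0495). The interaction of 5xFAD and Dp16, the transgene difference with Dp16 minus that without it, called 1 gene (0.00567%) and no member, with 750 genes and 1 of the members at an unadjusted p under 0.05. It was -1.48 for Clec7a (SE 0.66, edgeR adjusted p = 0.996) and -1.82 for Cst7 (SE 1.55, adjusted p = 0.996), and -0.997 for Cst7 without Dp16 sham 1. For Itgax it was 0.07 (SE 0.55). Striatum markers were above 0 in this interaction in 0 of 7 (median -0.62) and cortical excitatory neuron markers in 6 of 6 (median 0.18). Other plaque genes were above 0 in 8 of 38 (median -0.09). None of these was called, and their part in the members' values was not tested. DESeq2 without independent filtering called no member.

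Tofacitinib was compared with sham among carriers to ask whether Janus kinase inhibition moved the members. The edgeR test called none of 17632 genes (0%), with 2450 genes and 1 of the members at an unadjusted p under 0.05, and DESeq2 called 1 gene that is no member. Cst7 averaged 6.13 ± 4.39 CPM with tofacitinib (SD, n = 9) and 6.02 ± 4.58 CPM with sham (SD, n = 7), and its log2 difference of -0.08 (SE 0.59) changed sign between settings. Clec7a averaged 5.64 ± 4.57 CPM with tofacitinib and 3.51 ± 2.05 CPM with sham (0.59, SE 0.43, edgeR adjusted p = 0.501). Its difference was 0.32 without 5xFAD tofacitinib 2 and 0.35 without 5xFAD-Dp16 tofacitinib 1.

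Lyz2 had the smallest p of the members under tofacitinib. In carriers it was at 30.5, 27.5, 37.7 and 19.2 CPM in 5xFAD-Dp16 tofacitinib, against 22.5, 22.2 and 15.8 CPM in 5xFAD-Dp16 sham. It was at 13.6, 41.5, 24.3, 17.2 and 12.7 CPM in 5xFAD tofacitinib, against 17.9, 13.9, 9.30 and 13.3 CPM in 5xFAD sham. The groups overlapped in both pairs, and the log2 difference of 0.60 (SE 0.21) had an edgeR adjusted p of 0.352. Without 5xFAD tofacitinib 2, the mouse with 41.5 CPM, the difference was 0.42. Border macrophage and blood myeloid markers were above 0 in this comparison in 8 of 10 (median 0.26) and cortical excitatory neuron markers in 0 of 6 (median -0.26), with none called, and their part was not tested. Lyz2 also had the smallest p in the interaction of tofacitinib and 5xFAD, which called no gene (0%, with 2517 genes and 3 of the members at an unadjusted p under 0.05, and none in DESeq2 without independent filtering). There its value was 0.94 (SE 0.29, edgeR adjusted p = 0.338), and 0.77 without 5xFAD tofacitinib 2. Among non-carriers, Lyz2 averaged 19.0 ± 4.04 CPM in Dp16 tofacitinib and 24.4 ± 5.93 CPM in Dp16 sham, and 12.2 ± 3.56 CPM in WT tofacitinib and 15.2 ± 3.02 CPM in WT sham. Cd52 had 0.68 in this interaction (SE 0.33, adjusted p = 0.347).

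Sex was read in the same way. Female carriers averaged 8.49 ± 4.17 CPM of Cst7 (SD, n = 7) and male carriers 4.21 ± 3.61 CPM (SD, n = 9). Clec7a averaged 6.90 ± 4.50 CPM in female carriers and 2.99 ± 1.88 CPM in male carriers, against 0.713 ± 0.389 CPM in female non-carriers and 0.852 ± 0.648 CPM in male non-carriers (SD, n = 9 each). The interaction of sex and 5xFAD, the transgene difference in females minus that in males, called no gene (0%, with 552 genes and 2 of the members at an unadjusted p under 0.05, and none in DESeq2 without independent filtering). It was 1.72 for Clec7a (SE 0.61, edgeR adjusted p = 1), 2.07 for Cst7 (SE 1.33) and 0.26 for Axl (SE 0.13). Without 5xFAD tofacitinib 2, a female with 14.6 CPM of Clec7a, the value for Clec7a was 1.36. In this interaction 35 of 38 other plaque genes (median 0.21) and 14 of 14 homeostatic microglia markers (median 0.18) were above 0. So were 5 of 5 astrocyte markers (0.23), 5 of 5 oligodendrocyte markers (0.23) and 5 of 5 blood markers (0.06). Border macrophage and blood myeloid markers were above 0 in 8 of 10 (0.25). Not all lists went this way, with lymphocyte markers above 0 in 0 of 3 (-0.41) and cortical excitatory neuron markers in 1 of 6 (-0.02). None of these was called, and the median over all genes was -0.0054. The part of these cells in the members' values was not tested.

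The carriers differed among themselves far more in the called members than in Axl and Lpl. The lowest carrier in Cst7, 5xFAD sham 4, had 1 read, too few for a fold range, and from the next lowest carrier, with 8 reads, to the highest Cst7 covered a 35.3-fold range. From the lowest to the highest carrier Clec7a covered 19.5-fold, Itgax 16.6-fold, Ccl3 10.2-fold and Ccl6 7.85-fold, while Axl covered 1.38-fold and Lpl 1.49-fold. The lowest carriers in Itgax and Ccl3 had 4 reads each, so the ranges of these genes are imprecise. Members that were not called also spread widely, with 7.62-fold for Cd52, 4.84-fold for Spp1 and 4.46-fold for Lyz2. On the scale of log2(CPM + 0.5) the SD of Cst7 was 1.49 in carriers and 0.47 in non-carriers, and that of Lpl was 0.17 in carriers and 0.26 in non-carriers. The widest gap in Cst7 among carriers, 1.49 on the same scale, ran between 1.04 and 3.83 CPM and left 4 mice below and 12 above, and the next widest gap was 0.72. The 4 mice below were 5xFAD-Dp16 tofacitinib 4, 5xFAD-Dp16 sham 1, 5xFAD tofacitinib 6 and 5xFAD sham 4, so each carrier group held 1 of them. Their Thy1 was 1727, 1963, 1520 and 1503 CPM in that order, above the highest non-carrier at 952 CPM in each. Over all carriers Thy1 ran from 1427 to 2572 CPM. Of these 4 mice 5xFAD-Dp16 sham 1 was female and the others were male.

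Whether mice high in Cst7 were also high in the other members was then tested. Across the 16 carriers, Cst7 was set against each other member and Thy1, 10 relations in all, on log2(CPM + 0.5) with permutation tests adjusted over the 10. Clec7a followed Cst7 most closely (Pearson r = 0.88, Spearman rho = 0.89, permutation adjusted p = 1e-04, the smallest that 100000 permutations can give after adjustment). Ccl6 (r = 0.80, rho = 0.74, permutation adjusted p = 0.00085), Ccl3 (r = 0.76, rho = 0.66, adjusted p = 0.0022) and Itgax (r = 0.74, rho = 0.75, adjusted p = 0.0022) followed as well. Cd52 (r = 0.52, permutation adjusted p = 0.078) did not pass, nor did Spp1 (r = 0.37), Lyz2 (0.35), Axl (0.31) and Lpl (0.04). Thy1 had r = 0.44 (rho = 0.42, permutation adjusted p = 0.15), and r = 0.65 (permutation adjusted p = 0.018) without 5xFAD tofacitinib 2. In other settings Thy1 did not pass. Its r was 0.30 without the 2 mice farthest from the median of Cst7 (permutation adjusted p = 0.35). In the 12 mice above the gap in Cst7 it was 0.15 (permutation adjusted p = 0.79). It was 0.71 in male carriers (exact permutation adjusted p = 0.082) and -0.09 in female carriers.

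These relations rest in part on the mice with low Cst7. Without the 2 mice farthest from the median of Cst7, 5xFAD sham 4 and 5xFAD-Dp16 tofacitinib 4, r was 0.85 for Clec7a, 0.76 for Itgax, 0.72 for Ccl6 and 0.62 for Ccl3, each still past the threshold by Pearson's r, while by rank Ccl3 was not (rho = 0.52, permutation adjusted p = 0.13). Within the 12 mice above the gap only Clec7a passed by Pearson's r (r = 0.77, permutation adjusted p = 0.027), and by rank it did not (rho = 0.77, permutation adjusted p = 0.0507). There r was 0.57 for Ccl6, 0.54 for Itgax and 0.53 for Ccl3. Among the 7 female carriers Itgax passed by Pearson's r (r = 0.92, exact permutation adjusted p = 0.048) but not by rank (rho = 0.89, exact permutation adjusted p = 0.123), and Clec7a did not (r = 0.77, adjusted p = 0.16, exact permutation). Among the 9 male carriers Clec7a passed (r = 0.92, exact permutation adjusted p = 0.00063), and Ccl3 (r = 0.79) and Ccl6 (r = 0.79) had an adjusted p of 0.052 in the exact permutation test. Taken as deviations from the carrier group means, the 4 relations passed again and Cd52 passed with them (r = 0.67, permutation adjusted p = 0.0071).

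**Figure D4:**
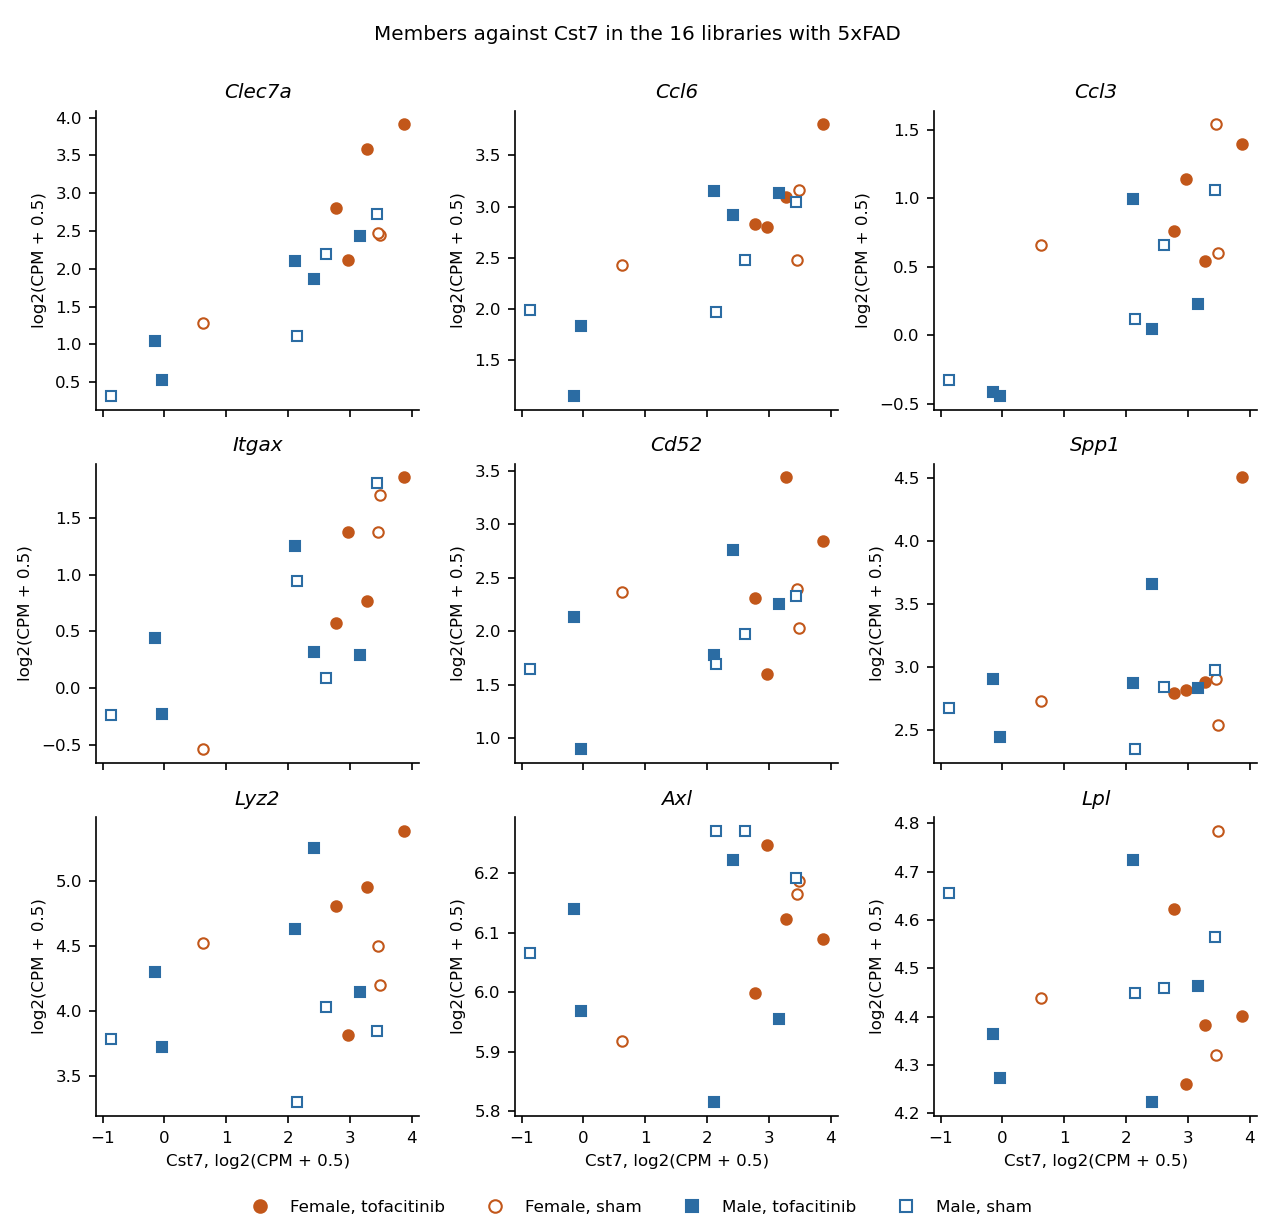
Each other member against Cst7, both in log2(CPM + 0.5), in the 16 libraries with 5xFAD, with axes fitted to each gene. Circles are females and squares males, filled for tofacitinib and open for sham; Clec7a rises with Cst7 over the whole range (r = 0.88), while Axl (0.31) and Lpl (0.04) show little relation to it.

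Genes outside the set with the pattern most like it were ranked by Pearson r over the 16 carriers with the mean of the 10 members' standardised levels, among the 14468 genes averaging 1 CPM or more. The first 10 were Ctsd (r = 0.91), Gfap (0.88), Cd300c2 (0.86), Hexa (0.86), C1qa (0.83), Fgl2 (0.83), Naip2 (0.82), Ctss (0.81), Lipa (0.81) and Fcgr3 (0.80). They include lysosomal enzymes (Ctsd, Hexa, Ctss, Lipa), a complement component (C1qa), myeloid surface receptors (Cd300c2, Fcgr3) and the astrocyte filament gene Gfap. Without 5xFAD tofacitinib 2 their r lay between 0.73 for Naip2 and 0.87 for Ctsd. Of these 10, only Ctsd was also called between carriers and non-carriers, and Gfap had a log2 difference of 0.49 (edgeR adjusted p = 0.124). The ranking describes these libraries and carries no test.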

How the data were processed

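Cortex RNA of 34 mice was read as paired 150-base ends from a strand-specific poly-A kit, per the labels' protocols. The authors deposited whole-number counts per gene together with RPKM values. Per the submitters' processing notes, the tools were HISAT2 2.1.0, HTSeq 0.6.1, SAMtools 1.5, FastQC 0.11.5 and bcl2fastq, and the build was GRCm38. The roles of these tools and the strand setting of the counting are not given in the sources used here. RPKM recomputed from the deposited counts matched 713471 nonzero deposited values to a relative difference of 7.13e-14. Where the series text lists 6 mice (5xFAD tofacitinib) and 4 mice (5xFAD-Dp16 sham), the libraries analysed here number 5 and 3. The series text counts its groups in mice, so each library was taken as 1 mouse.

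Counts were tested with the quasi-likelihood method of edgeR 4.0.16 (R 4.3.3), with robust estimation. Genes were kept by filterByExpr over 8 groups and scaled by TMM, and the model held the groups and sex and used every library. Groups had equal weight in each contrast. F-tests were two-sided, and called genes had an adjusted p under 0.05. The SE is the log2 difference divided by the square root of F. Correlations used Python 3.11.15 and numpy 2.4.6 on log2(CPM + 0.5), with 100000 permutations, or all of them under 10 libraries. The procedure was checked on simulated counts. Positions came from GENCODE M21, which held the same ID for the 10 members, while the deposited tables use M24. The members and gene lists were chosen with earlier results of these data known, robust estimation was taken because those results used it, and all members were named. Of other plaque genes up to 5 with the smallest p were named, and the 10 most alike. Alternatives were DESeq2 1.42.0 with and without independent filtering, RLE scaling, no filter on counts, a filter at an average of 1 CPM, no sex term, the replicate number as a block, no robust estimation, and left-out libraries.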

Additional observations from a re-analysis of the deposited data

Results flagged for a closer look

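Of 60 checks of a member within a group of 4 or 5 mice, 3 found a library whose distance to its nearest neighbour took up most of the range of its group, where chance alone gives about 1 in 20. Spp1 was 22.3 CPM in 5xFAD tofacitinib 2 and 6.86 CPM in the next mouse of that group, a gap of 0.890 of the range. Spp1 was also 12.2 CPM in 5xFAD-Dp16 tofacitinib 3 against 7.02 CPM in the next mouse, a gap of 0.898 of the range. Cd52 was 2.83 CPM in WT tofacitinib 1 against 1.78 CPM in the next mouse, a gap of 0.773 of the range. In 5xFAD tofacitinib 2, oligodendrocyte markers summed to 13341 CPM, and their part in the level of Spp1 was not tested.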

How the results depend on the processing

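The 5 calls between carriers and non-carriers held under RLE scaling, without a sex term, without robust estimation and without WT sham 2 and 5xFAD tofacitinib 2. At an average of 1 CPM, Itgax and Ccl3 were not tested and 3 members were called. Genes called there, 76 in all, were 512 with DESeq2, 384 with DESeq2 without independent filtering, 1358 with no filter on counts and 17 with a replicate block, where Ccl3 was no longer called (adjusted p = 0.0635). Leaving out 1 library gave 14 (without Dp16 sham 2) to 322 genes (without 5xFAD tofacitinib 2) and 4 to 6 members; of these 34 fits, 32 called 5 members and 21 moved the gene count by over 1.5 times. The cause was not tested for any of these shifts.

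With DESeq2, genes called were 1532 in 5xFAD against WT sham (1293 without independent filtering), 2 (2) in 5xFAD-Dp16 against Dp16 sham, 5 (6) in 5xFAD against WT tofacitinib, 2 (2) in 5xFAD-Dp16 against Dp16 tofacitinib, 161 (156) in 5xFAD-Dp16 against 5xFAD, 1 (1) in tofacitinib against sham and 244 (244) in Dp16 against WT. DESeq2 without independent filtering called 4 members in 5xFAD against WT sham and 3 under tofacitinib.

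With no filter on counts, genes and members called were 1784 and 5 in 5xFAD against WT sham, 52 and 1 in 5xFAD-Dp16 against Dp16 sham, 76 and 6 in 5xFAD against WT tofacitinib, 111 and 6 in 5xFAD-Dp16 against Dp16 tofacitinib, 371 and 1 in 5xFAD-Dp16 against 5xFAD, 47 and 1 in the interaction of 5xFAD and Dp16, 703 and 1 in tofacitinib against sham, 675 and 2 in the interaction of tofacitinib and 5xFAD, 15 and 2 in that of sex and 5xFAD, and 258 and 2 in Dp16 against WT.

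In 5xFAD against WT tofacitinib, the replicate block gave 4 genes and 3 members, an average of 1 CPM 2 members, no robust estimation 2 members, and leaving out WT sham 2 and 5xFAD tofacitinib 2 gave 1 gene and 0 members. No robust estimation gave 3 genes and 1 member in 5xFAD against WT sham. The replicate block gave 58 genes in 5xFAD-Dp16 against 5xFAD and 88 in Dp16 against WT, where leaving out both libraries gave 217 genes and 1 member. The difference of Cst7 between tofacitinib and sham was 0.00984 without the sex term and 0.17 with the replicate block.

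Leaving out 1 library gave 1 to 2008 genes and 0 to 4 members in 5xFAD against WT sham, 1 to 9 genes and 0 to 3 members under tofacitinib, 56 to 116 genes in 5xFAD-Dp16 against 5xFAD, 1 to 2 in 5xFAD-Dp16 against Dp16 tofacitinib, 0 to 1 in the interaction of 5xFAD and Dp16, and 87 to 231 genes and 0 to 1 members in Dp16 against WT; Cst7 between tofacitinib and sham lay between -0.36 and 0.21. Of the correlations with Cst7, by Pearson's r, 4 passed in all carriers and 1 each above the gap, in females and in males; r reversed to -0.00147 for Lpl with a pseudocount of 0.1, to -0.0413 for Lpl above the gap and to -0.0888 for Thy1 in females.

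Replicate numbers are not said to pair mice: of 98 pairs of libraries with the same number, 22 deviated together with r over 0.1, with a median r of 0.0144. Of 405 pairs with different numbers, 88 had r over 0.1, with a median r of -0.0053. Itgax, Ccl3 and Cst7 had few counts in non-carriers, which limits the precision of their fold changes.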
